A study of Mus musculus with 11 samples.

Results

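Collagen genes were followed across cultured bone mesenchymal stem cells (MSCs, stromal cells that can form bone, cartilage and fat cells) of young and old mice. All protein-coding genes whose symbol has the form of a collagen chain name (Col, a type number, a and a chain number) were taken, which gave 44 of the 28222 genes of the count table. By the assemblies their proteins form they were divided into 11 fibrillar collagens, 6 basement membrane collagens of type IV, 3 network collagens of types VIII and X, 6 beaded filament collagens of type VI, 9 fibril-associated collagens, 3 collagens of the basement membrane zone, 4 transmembrane collagens and 2 other minor collagens.

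Polyadenylated RNA was sequenced in 11 libraries of MSCs that were all cultured at 2% oxygen in αMEM. Young mice were 3 to 5 months and old mice 18 to 22 months of age, and the labels name 3 batches, which gave 4 libraries of A young, 2 of B young, 2 of B old and 3 of C old. The labels name no genetic change and no agent in any group, and the study's methods, written for a comparison of oxygen levels, describe MSCs from digested hind limb bones that were sorted as negative for CD45 and TER-119 and positive for CD140a and Sca-1. Those methods name wild-type males of the strain C57BL/6N at the young age. For the libraries described here, old mice included, the labels give no strain or sex and do not say whether each library came from its own animal. P-values therefore measure the spread between these libraries, which may be technical. Age and batch could be separated within batch B alone.

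Collagens are triple helices of 3 α chains, each chain usually the product of its own gene, and most of the extracellular matrix of bone, tendon and cartilage is built from them. Type I collagen (Col1a1 and Col1a2) is the main protein of bone matrix, type III (Col3a1) and type V (Col5a1, Col5a2, Col5a3) copolymerise with it, and types II, IX, X and XI are characteristic of cartilage. Type IV forms the sheet of basement membranes, type VI forms microfibrils around cells, and the chains are hydroxylated, trimmed and crosslinked by a dedicated set of enzymes.

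For the 3 collagens that differed between ages within batch B, the 250 bases before the start of the RefSeq gene are shown, because these members moved between the groups. The sequences are from RefSeq on GRCm38, written 5′ to 3′ on the strand of the gene. Col8a1 lies on the minus strand at chr16:57754738-57754987, Col9a1 on the plus strand at chr1:24177360-24177609 and Col11a2 on the plus strand at chr17:34038888-34039137, and capitals mark TATAAA and GGGCGG on either strand.
Col8a1: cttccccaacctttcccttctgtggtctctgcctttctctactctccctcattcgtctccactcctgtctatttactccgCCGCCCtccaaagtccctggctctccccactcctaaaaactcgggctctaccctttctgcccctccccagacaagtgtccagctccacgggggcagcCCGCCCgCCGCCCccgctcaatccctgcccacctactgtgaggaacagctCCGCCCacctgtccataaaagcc
Col9a1: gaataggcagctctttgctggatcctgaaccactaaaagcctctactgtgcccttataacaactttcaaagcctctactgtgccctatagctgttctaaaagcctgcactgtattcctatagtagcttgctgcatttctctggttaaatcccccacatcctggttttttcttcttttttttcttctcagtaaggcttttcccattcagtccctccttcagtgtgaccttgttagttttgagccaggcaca
Col11a2: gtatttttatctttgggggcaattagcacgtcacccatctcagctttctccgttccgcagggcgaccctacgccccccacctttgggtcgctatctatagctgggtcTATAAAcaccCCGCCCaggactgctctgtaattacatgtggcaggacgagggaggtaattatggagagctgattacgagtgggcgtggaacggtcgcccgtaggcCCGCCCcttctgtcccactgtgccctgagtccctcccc
The Col8a1 window had a GC content of 60.8% and held GGGCGG at 4 places. The Col11a2 window, with 57.6% GC, held that motif at 2 places and TATAAA at 1 place. The Col9a1 window, with 43.6% GC, held neither motif. Col9a1 has a second listed start, whose window (chr1:24194953-24195202, not shown) had 56% GC and also held neither of them. Promoter windows were listed for 35 of the 44 collagens, in 38 windows. GGGCGG stood in 22 of these 38 windows (57.9%) against 32.7% of all 32851 windows of that length, TATAAA in 13.2% against 12.4%, and CCAAT in 34.2% against 33.8%. The median GC content was 59.0% for collagens and 52.4% for all windows, so that the first motif, which is GC-rich itself, was read in windows of other composition.

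Type IV genes lie in head-to-head pairs, and for Col4a1 (chromosome 8, 11198423 to 11312826, minus strand) and Col4a2 (chromosome 8, 11312805 to 11449287, plus strand) the annotated starts overlap by 22 bases at chr8:11312805-11312826, shown on the plus strand because the ratio of both transcripts is described further on. Motifs are not put in capitals in this stretch, which holds GGGCGG.
Shared start of Col4a1 and Col4a2: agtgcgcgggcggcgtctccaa
The starts of Col4a3 and Col4a4 on chromosome 1 are 71 bases apart, and those of Col4a5 and Col4a6 on chromosome X 1308 bases apart.

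Total counts per library were between 11969336 and 20315934, and a floor of 3 counts was equal to 0.148 to 0.251 CPM (counts scaled to a common library size after TMM normalisation). MSC markers were present throughout, with a summed level of 1432 to 2103 CPM over 7 genes and none at 0. Of the markers of other cells, the 14 haematopoietic genes summed to 687.8 to 1499 CPM in A young, 391 to 795 CPM in B young, 801 to 1160.3 CPM in B old and 135 to 160.2 CPM in C old libraries, again with none at 0. The 7 osteoblast genes summed to 253 to 303 CPM in A young, 203 to 226 in B young, 362 to 390.2 in B old and 482 to 676.5 in C old, and the 7 chondrocyte genes to 4158 to 6209, 3836 to 5198, 1803 to 1965 and 2870.5 to 3593 CPM in that order of groups. Comp made up most of the chondrocyte sum in every library. Of the chondrocyte genes Matn1 was at 0 in 3 libraries, and no osteoblast gene was at 0 in any library. The 5 smooth muscle and pericyte genes summed to 3266 to 4494.5 CPM in A young and 2344 to 2427 CPM in B young. They summed to 3001 to 3583 CPM in B old and 3258 to 3661 CPM in C old, and Acta2 made up most of each sum. The 3 tenocyte genes summed to 53.7 to 98.5 CPM and the 5 adipocyte genes to 17.0 to 83.0 CPM over all libraries. The endothelial, keratinocyte, erythroid and osteoclast lists summed to at most 9.89 CPM in any library. The counts of the B young pair differed most of all replicate pairs, with a chi-square of 52.3 per gene against 3.24 to 23.7 in the other pairs, and the counts of collagens called in comparisons with B young are given with and without each.

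Collagens took up a large share of the counts in these cells, and a smaller share in C old than in A young MSCs. Of all counts, collagens held 11.5%, 11.5%, 12.02% and 11.2% in the A young libraries. They held 10.3% and 6.82% in the B young libraries, 6.31% and 6.81% in the B old libraries, and 7.09%, 7.43% and 7.37% in the C old libraries. B young replicate 1 was therefore close to A young and B young replicate 2 close to both old groups. Counting error was small beside this spread, with 95% Wilson intervals of 10.28% to 10.31% and 6.802% to 6.828% for B young, which cover counting error only.

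The mean share was 11.6% ± 0.341 (SD, n = 4) in A young and 7.30% ± 0.178 (SD, n = 3) in C old, a difference of −4.26 percentage points in a two-sided exact permutation test over libraries (p 0.0286, the smallest that 35 splits allow). Collagen transcripts are long and collect more reads per molecule. As a share of TPM, which divides by transcript length, collagens held 4.99% to 5.49% in A young and 3.29% to 3.52% in C old libraries. The difference was −1.85 points (exact permutation p 0.0286). Shares of TPM were lower than shares of counts in every library, so the points of both measures are not on the same scale. Within batch B the means were 8.55% ± 2.46 (SD, n = 2) in young and 6.56% ± 0.354 (SD, n = 2) in old, and the difference of −1.99 points gave an exact p of 0.333, which is the smallest this design allows. B young against A young differed by −3 points (exact p 0.0667) and C old against B old by 0.737 points (exact p 0.1), both also the smallest possible values. Over these 4 comparisons the Benjamini-Hochberg adjusted values of the exact tests were between 0.114 and 0.333. Without Col1a1, Col1a2 and Col3a1 the share of C old differed from A young by −0.0462 points (exact p 0.686). In bulk RNA, fewer cells that make a collagen and less of its RNA per cell cannot be told apart.

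**Figure D1:**
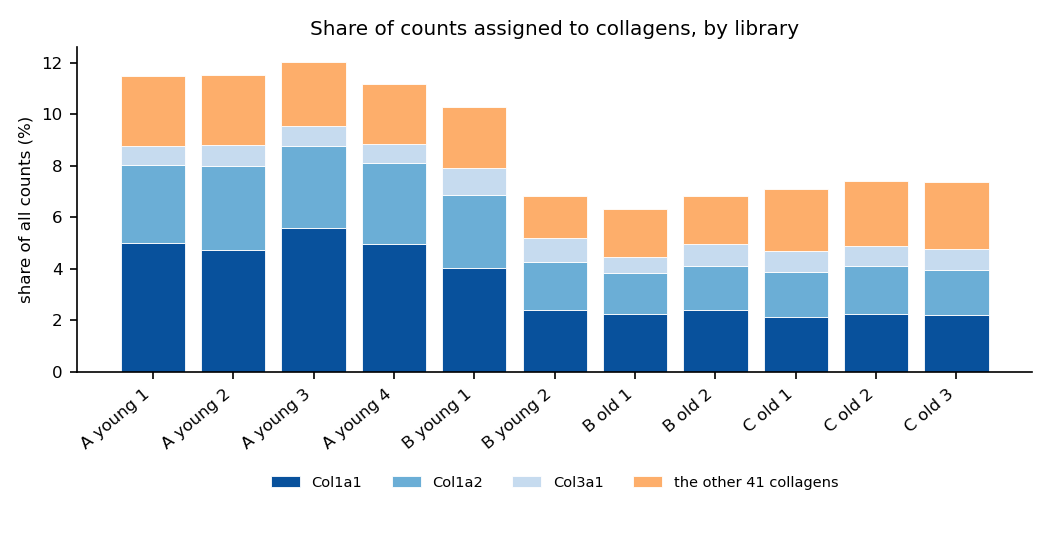
Stacked bars give the share of all counts (%) in each library that was assigned to Col1a1, Col1a2, Col3a1 and the other 41 collagens. The 4 A young bars reach 11.2% to 12.02%, B young replicate 2 stands at 6.82% beside the old libraries, and the top segment differs less between groups than the type I segments.

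Col1a1, Col1a2 and Col3a1 were the 3 most abundant collagens per transcript length in every group. Levels are given as RPKM (CPM divided by the length of the longest transcript in kilobases), averaged over the group means so that each group counts equally. They were 5527, 4265 and 1485 RPKM, and these 3 collagens made up 64.8% to 79.4% of all collagen counts in a library. Col5a2 followed with 678.6 RPKM, then Col6a1 with 526, Col5a1 with 496, Col12a1 with 399.6 and Col6a2 with 378. These 5 changed places between groups, so that their order was not fixed. Col2a1, the chain of cartilage type II collagen, came next with 165 RPKM, before Col8a2 with 111.1 and Col11a1 with 110.9, whose ranges over libraries overlapped.

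By their mean over libraries, 8 collagens were above 1000 CPM, 10 between 100 and 1000, 14 between 1 and 100 and 12 under 1 CPM. The last 12 were Col4a3 and Col4a4, the kidney type IV chains, Col6a4, Col6a5, Col6a6, Col9a1, Col13a1, Col17a1, Col19a1, Col22a1, Col25a1 and Col26a1. Col13a1, Col25a1 and Col26a1 had at most 3, 2 and 5 counts in any library and did not pass the filter on low counts in any comparison. The other 41 were tested between both ages of batch B.

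Among the 32 collagens of at least 1 CPM on average, C old had the highest group mean for 18, A young for 9, B young for 4 and B old for 1. The lowest mean was in B old for 14, B young for 10, C old for 5 and A young for 3. Col15a1, a proteoglycan-type collagen of the basement membrane zone, spanned the widest range, with a mean of 66.0 CPM in C old and 2.15 CPM in B young, a ratio of 30.7. Col12a1, which decorates the surface of fibrils, spanned the narrowest, with a ratio of 1.22 between A young and B old, and Col11a1 came next.

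**Figure D2:**
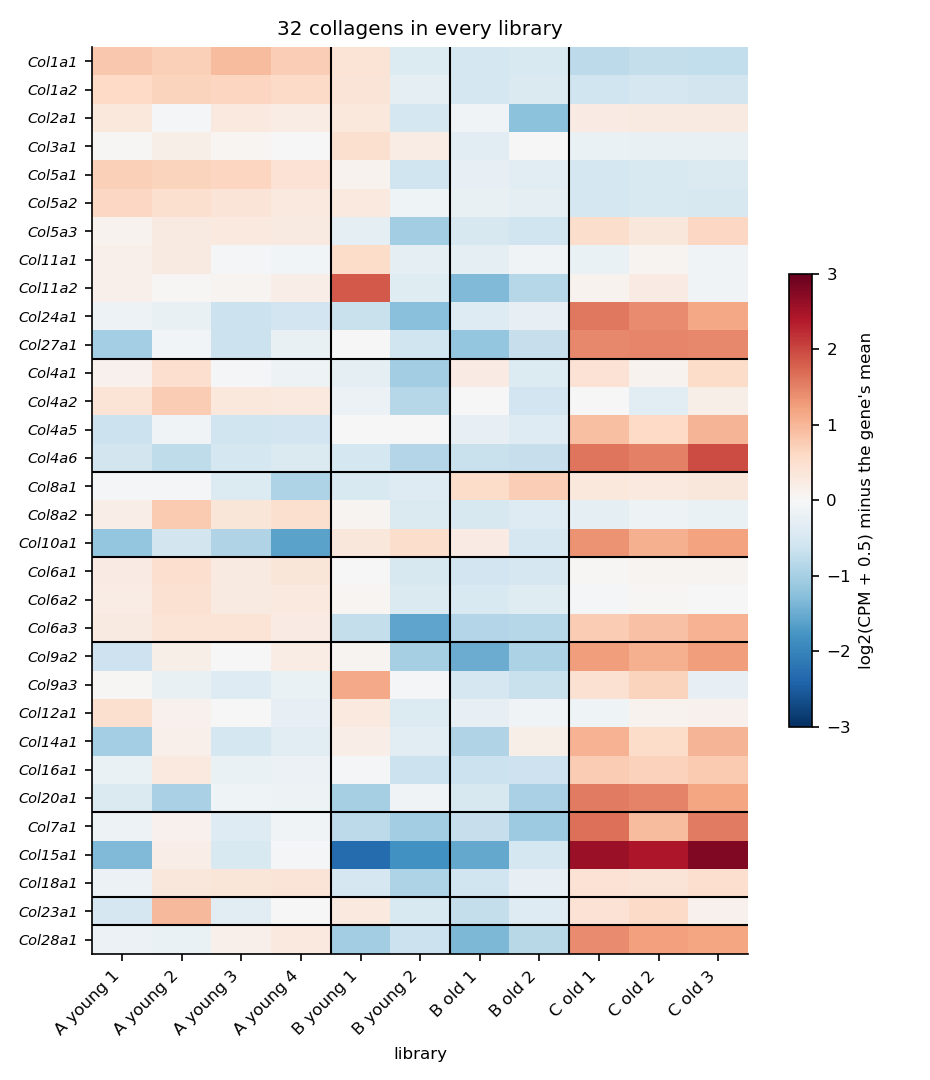
Rows are the 32 collagens with a mean of at least 1 CPM, in blocks by class (fibrillar, basement membrane, network, beaded filament, fibril-associated, basement membrane zone, transmembrane, other minor), and columns are libraries. Colour gives log2(CPM + 0.5) minus the mean of the gene over libraries on a scale from −3 to 3. The C old columns are red for most minor collagens such as Col15a1, Col28a1 and Col27a1 and blue for Col1a1, Col1a2, Col5a1 and Col5a2.

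The comparison of B old with B young MSCs asked which collagens changed with age when batch was held constant. Of 41 collagens tested, 1 was higher and 2 were lower in old MSCs in edgeR's quasi-likelihood test with a Benjamini-Hochberg adjusted p under 0.05, against 2.23% of all 16132 genes (0.694% higher and 1.54% lower). Col8a1 rose, and Col9a1 and Col11a2 fell. At an unadjusted p under 0.05 there were 13 of 41 collagens and 2597 of all 16132 genes. The median log2 fold change was −0.27 over collagens and 0.00 over all genes tested, and 28 of the 41 values were negative. Collagens whose libraries did not overlap between ages numbered 17 (5 higher and 12 lower), against 39.7% of all genes (19.2% higher and 20.6% lower). Haematopoietic markers were positive in 14 of 14 with 0 called, and osteoblast markers in 6 of 7 with 1 called higher. Of 2 tested osteoclast markers 1 was called higher. MSC markers were negative in 6 of 7 with 2 called lower. The part of these markers in the collagen values was not tested.

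Col8a1 (ENSMUSG00000068196, chromosome 16, 57624258 to 57754737) encodes the α1 chain of type VIII collagen, a short-chain collagen that forms hexagonal networks. It was at 318 and 334.5 CPM in B young and at 645 and 728 CPM in B old libraries. In A young it was at 424, 424, 328.5 and 229 CPM, and in C old at 544, 539 and 557 CPM. Each of the 5 old libraries was thus above each of the 6 young libraries. The log2 fold change of B old against B young was 1.07 (SE 0.21, edgeR adjusted p 0.0126). It was between 0.98 and 1.17 when each library was left out in turn and passed the threshold in 9 of 11 such fits, not without B young replicate 1 (1.04) or B old replicate 2 (0.98). Its partner Col8a2, which can join it or form trimers of its own, did not pass (−0.27, SE 0.18).

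Col11a2 (ENSMUSG00000024330, chromosome 17, 34039437 to 34066685) encodes the α2 chain of type XI collagen of cartilage fibrils. It was at 26.2 and 5.31 CPM in B young, 2.49 and 3.61 CPM in B old, 7.76, 7.09, 7.35 and 8.04 CPM in A young, and 7.59, 8.38 and 6.46 CPM in C old libraries. B young replicate 1 stood far above all other libraries, and A young and C old overlapped. The log2 fold change within batch B was −2.38 (SE 0.48, edgeR adjusted p 0.0164), and it was −0.80 without B young replicate 1 and no longer passed. It did not pass without B old replicate 1 (−2.13) or B old replicate 2 (−2.68) either. With batch B fitted alone, where the spread came from 4 libraries, its fold change was −2.38 and it did not pass either.

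Col9a1 (ENSMUSG00000026147, chromosome 1, 24177610 to 24252684) encodes the α1 chain of type IX collagen, which coats type II fibrils in cartilage. It had 52 and 20 counts in B young (2.71 and 1.36 CPM), and 4 and 5 counts in B old (0.269 and 0.334 CPM). It had 1 to 11 counts in A young and 5 to 14 in C old libraries, ranges that overlap. The log2 fold change within batch B was −2.74 (SE 0.68, edgeR adjusted p 0.0474) and rests on few reads. It passed in 4 of 11 fits with 1 library left out, where it ranged from −3.14 to −2.14. Its partner chains Col9a2 (−1.06, SE 0.42) and Col9a3 (−1.72, SE 0.48) did not pass, with edgeR adjusted p of 0.219 and 0.0776. Of the 7 chondrocyte markers, 3 were lower and 0 higher in B old, in the same comparison, with 6 negative values and 1 positive value. Their sum was 1803 to 1965 CPM in B old against 3836 to 5198 CPM in B young, with Matn1 at 0 in 1 of the B old libraries. Most of that sum was Comp, at 1657 and 1820 CPM in B old and 4912 and 3655 CPM in B young. Acan overlapped between the groups. The sum thus does not describe the other markers of the list. Their part in these results was not tested.

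The chains of the major fibrils did not pass the threshold within batch B. Col1a1, which provides 2 of 3 chains of type I collagen, was at 42645 and 23952 CPM in B young and 22255 and 23439 CPM in B old libraries. Col1a2 was at 29795 and 18875 CPM in B young and 15781 and 16930.5 CPM in B old. Col3a1, abundant in distensible tissues such as skin and vessels, was at 11232 and 9389 CPM in B young and 6410.3 and 8155 CPM in B old. For each of them both old libraries were below both young libraries, but the pair of young libraries spanned a wider range than the gap between ages for type I. The log2 fold changes were −0.54 for Col1a1 (SE 0.21), −0.57 for Col1a2 (SE 0.18) and −0.50 for Col3a1 (SE 0.15), with edgeR adjusted p of 0.197, 0.111 and 0.0941.

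These values turned on B young. Without B young replicate 2, 12% of all genes passed in place of 2.23%, and 14 collagens passed, 1 higher (Col8a1) and 13 lower, among them Col1a1 (−0.90), Col1a2 (−0.87), Col3a1 (−0.63) and Col5a2 (−0.55). Without B young replicate 1, 1.23% of all genes and 1 collagen passed, Col6a3, which was higher in old (0.72), and Col1a1 was at −0.069 and Col1a2 at −0.21. Without B old replicate 1 only Col8a1 remained of the 3 and without B old replicate 2 none. The count of collagens called with age in batch B thus ranged from 0 to 14 with the library that was left out.

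**Figure D3:**
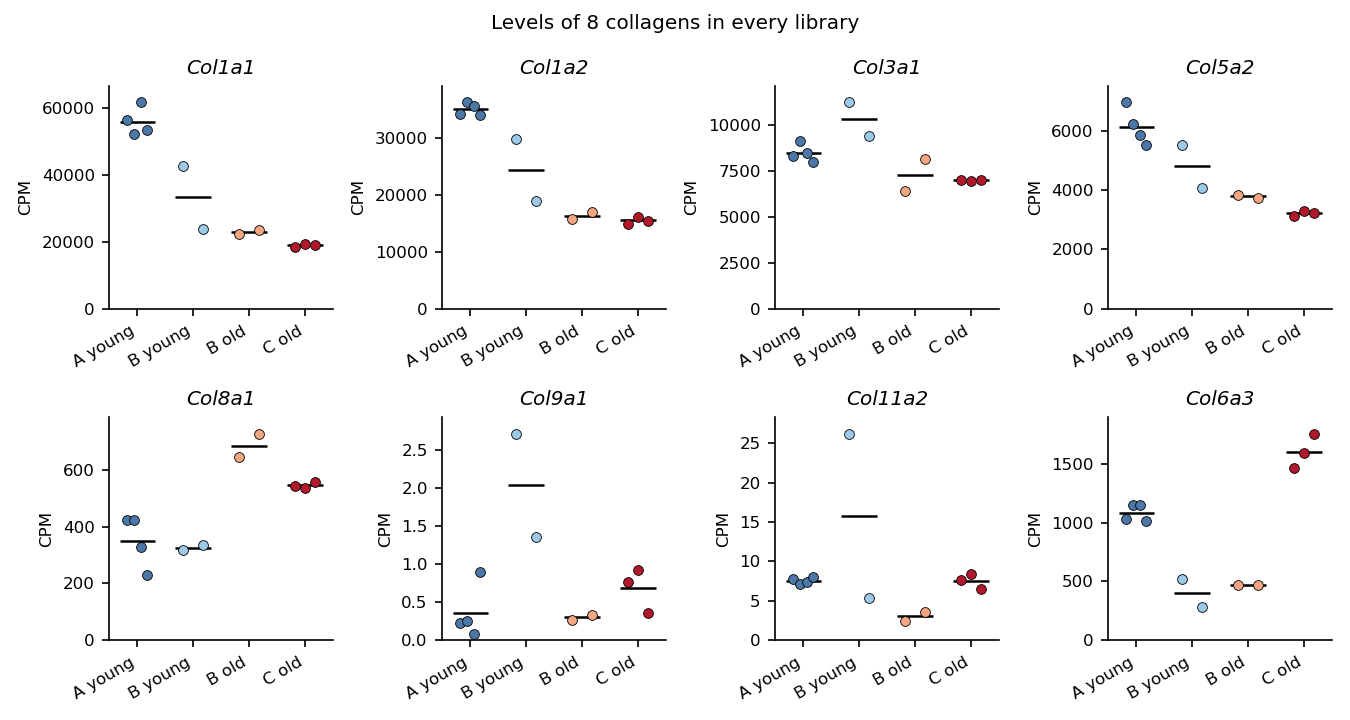
Points are CPM of 8 collagens in each library, by group, on linear axes that start at 0, and horizontal lines are group means. Col8a1 is higher in both old groups than in both young groups (539 to 728 against 229 to 424 CPM), and the B young pair is split for Col1a1, Col1a2 and Col11a2.

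The type V chains, which limit fibril diameter, differed in their pattern. Col5a2 was at 5541.5 and 4093.5 CPM in B young and 3847 and 3743 CPM in B old libraries, with a log2 fold change of −0.34 (SE 0.15). Col5a1 was at 4551 and 2804 CPM in B young and 3552 and 3407 CPM in B old, so that the groups overlapped (−0.08, SE 0.18). Over the fibrillar class as a whole 1 of 11 passed, the median was −0.50, and 9 of 11 values were negative.

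Basement membrane and beaded filament collagens gave no call between ages in batch B in edgeR, where 1 type IV chain (Col4a1) and no type VI chain had an unadjusted p under 0.05. Col4a1 was at 226 and 135 CPM in B young and 329 and 208 CPM in B old (0.57, SE 0.25), and Col4a2 at 270.5 and 171 CPM in B young and 304 and 206 CPM in B old (0.21, SE 0.23). In both, the groups overlapped. Col6a1 was at 2228 and 1592 CPM in B young and 1509 and 1563 CPM in B old (−0.31, SE 0.15), and Col6a2 at 2002 and 1425 CPM in B young and 1388 and 1486.5 CPM in B old (−0.25, SE 0.15). Col6a3, the largest chain of type VI collagen, was at 523 and 286 CPM in B young and 469 and 471.5 CPM in B old (0.22, SE 0.20). Medians were 0.11 for the 6 type IV chains and −0.18 for the 6 type VI chains.

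The 9 fibril-associated collagens had a median of −0.33 with all 9 values negative and 1 call, Col9a1. Col12a1 was at 5644 and 3476 CPM in B young and 3904 and 4259 CPM in B old libraries (−0.16, SE 0.22), with overlapping groups. The 3 collagens of the basement membrane zone were all positive with a median of 0.30 and no call. Of the transmembrane collagens 2 were tested (Col17a1 and Col23a1) and neither passed, nor did Col28a1.

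Of 31 genes for hydroxylation, folding, trimming and crosslinking of collagens, 29 were tested between ages in batch B, and 4 were lower in edgeR (Pcolce2, Pcolce, P3h2 and Plod1) and 0 higher, against 2.23% of all genes called. Of the 29, 11 had an unadjusted p under 0.05 in either direction, against 2597 of all 16132 genes, and limma-trend called 1 higher and 4 lower. Without B young replicate 1 there were 1 higher and 2 lower, and without B young replicate 2 there were 0 higher and 8 lower. Pcolce2, an enhancer of procollagen C-proteinase, was at 24.9 and 30.5 CPM in B young and 12.7 and 10.2 CPM in B old, and at 26.4, 27.5, 31.8 and 29.8 CPM in A young and 17.4, 20 and 16.3 CPM in C old libraries (−1.27, SE 0.16, edgeR adjusted p 0.000847). Pcolce, the other enhancer of that proteinase, was at 1361 and 1219 CPM in B young, 775 and 880.3 CPM in B old, 1134 to 1273 CPM in A young and 739 to 746 CPM in C old (−0.64, SE 0.12, edgeR adjusted p 0.00922). For both genes all old libraries were below all young libraries. P3h2, a prolyl 3-hydroxylase, was at 9.64 and 7.42 CPM in B young and 3.23 and 4.81 CPM in B old (−1.09, SE 0.23, edgeR adjusted p 0.0215). Of the 29 genes tested in each of the other comparisons, 6 were higher and 2 lower in B young against A young, where 18.1% of all genes were called, 7 higher and 14 lower in C old against B old, where 64.7% were called, and 5 higher and 17 lower in C old against A young, where 63.8% were called. In B young against A young there were 2 higher and 3 lower without B young replicate 1 and 2 higher and 0 lower without B young replicate 2.

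The next comparison measured how far collagens differed between batches at the same young age. Of 37 collagens tested, 3 were higher and 12 lower in B young than in A young MSCs, against 18.1% of all 14840 genes (9.39% higher and 8.71% lower). The median log2 fold change was −0.33 over collagens and 0.01 over all genes. The libraries did not overlap for 20 collagens (4 higher and 16 lower), against 40.9% of all genes (20.1% higher and 20.8% lower). All 3 collagens of the basement membrane zone were lower, as were 3 of 11 fibrillar, 2 of 5 tested type IV and 2 of 5 tested type VI collagens. After a correction for transcript length and GC content, 7 were higher and 6 lower, against 1109 higher and 893 lower of all 14818 genes. Of the haematopoietic markers 6 of 14 were lower in B young, with all 14 values negative, as were 3 of 7 osteoblast markers and 1 of 4 tested adipocyte markers. Among the 7 MSC markers 2 were higher and 1 lower. The part of these markers in the result was not tested. B young libraries also enter the comparison of ages in batch B, and a level that is high or low in B young moves both.

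Among the lower collagens, Col6a3 had the smallest p. It was at 1028, 1149.5, 1149 and 1014 CPM in A young against 523 and 286 CPM in B young (−1.40, SE 0.21, edgeR adjusted p 0.0018). Col18a1, which releases the fragment endostatin, was at 97.2, 141, 143 and 144 CPM in A young and 78.3 and 57.6 CPM in B young (−0.93, SE 0.18, edgeR adjusted p 0.00585). Col4a2 was at 407, 522, 383.5 and 379 CPM in A young and thus above both B young libraries (−0.92, SE 0.19, edgeR adjusted p 0.00785). Without B young replicate 2 Col4a2 and Col18a1 no longer passed, and the number of collagens called fell to 5 (4 higher and 1 lower), with 3.36% of all genes called in place of 18.1%. Without B young replicate 1, 17 collagens were called (1 higher and 16 lower), with 26.5% of all genes, and Col9a1, Col4a5 and Col28a1 no longer passed.

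Col10a1, the collagen of hypertrophic cartilage, was at 2.6, 4.22, 3.22 and 1.79 CPM in A young and 8.29 and 9.60 CPM in B young libraries (1.62, SE 0.27, edgeR adjusted p 0.00294). Col9a1 was higher by 2.53 (SE 0.58, edgeR adjusted p 0.0118) and Col4a5 by 0.49 (SE 0.15, edgeR adjusted p 0.0447). Col4a5, an X-linked chain of type IV, was at 26.9, 39.1, 27.8 and 28.2 CPM in A young and 42.7 and 41.4 CPM in B young. The groups did not overlap for any of these 3 genes. With 1 library left out in turn, Col10a1 passed in 6 of 6 fits and Col9a1 in 5 of 6, whereas Col4a5 passed in 1 of 6, the one without A young replicate 2.

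Between batches at old age, most collagens were higher in C old than in B old MSCs. Of 41 tested, 25 were higher and 4 lower, against 64.7% of all 15651 genes (32.1% higher and 32.6% lower). The median log2 fold change was 1.03 over collagens and 0.02 over all genes. The libraries did not overlap for 30 collagens (26 higher and 4 lower), against 76.3% of all genes (38.9% higher and 37.4% lower). The 4 lower collagens were Col1a1, Col5a1, Col5a2 and Col8a1, of which 3 belong to the major fibrils. Scaling by total counts moved the median of all genes from 0.02 to 0.22. It gave 29 collagens higher and 0 lower, against 6472 higher and 3825 lower of all 15651 genes. Once length and GC content of transcripts were corrected for, 17 were higher and 10 lower, against 4063 and 5710 of all 15625 genes.

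Collagen transcripts are long, with a median of 6048 nucleotides against 3139 for all genes tested. Genes with a length in the middle range of collagens (5108 to 7612 nucleotides) had a median log2 fold change of 0.30 in this comparison, with 50.2% higher and 18.3% lower, and the shortest and longest decile of all genes had medians of −0.69 and 0.52. The part of length in the collagen values was not tested beyond the correction. Of the haematopoietic markers 14 of 14 were lower in C old, 5 of 7 osteoblast markers and 3 of 4 tested adipocyte markers were higher, with a summed level of the adipocyte list of 17.0 to 26.0 CPM in B old against 65.4 to 83.0 CPM in C old libraries and Cidec at 0 in 7 of the 11 libraries. Among the 7 MSC markers 3 were higher and 2 lower in C old. The part of these markers in the result was not tested.

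Col27a1 (chromosome 4, 63214004 to 63334991), a fibrillar collagen of cartilage, was at 14.0 and 19.6 CPM in B old and at 87.2, 89.2 and 87.0 CPM in C old libraries (2.38, SE 0.11, edgeR adjusted p 8.53e-09). In A young it was at 15.5, 30.2, 20.2 and 27.1 CPM and in B young at 32.2 and 20.9 CPM, so that C old stood apart from all other groups. Col16a1, a fibril-associated collagen, was at 163 and 165.5 CPM in B old and 436, 409.9 and 438 CPM in C old (1.38, SE 0.07, edgeR adjusted p 1.24e-08). In A young it was at 221.5, 309.9, 223 and 227 CPM and in B young at 247 and 163 CPM. Col6a3 rose from 469 and 471.5 CPM in B old to 1464.5, 1591 and 1755 CPM in C old (1.77, SE 0.09, edgeR adjusted p 1.42e-08). All 3 had C old values above every other library.

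Col6a1 was at 2272, 2382 and 2351 CPM and Col6a2 at 1839, 1947 and 1929 CPM in C old. This was 0.60 (SE 0.07) and 0.40 (SE 0.07) above B old on the log2 scale, so that the type VI chains differed in the size of the change. Under the correction for length and GC content Col6a1 was at 0.27 and still passed, while Col6a2 was at 0.041 and no longer passed. Col4a1 was at 374, 298 and 406 CPM in C old (0.42, SE 0.17, edgeR adjusted p 0.0432), and its direction turned under the correction for length and GC content (−0.24). Col4a2 was at 311, 242 and 349.5 CPM in C old and Col12a1 at 4219, 4998 and 5068 CPM, and neither passed, with log2 fold changes of 0.24 (SE 0.16) and 0.22 (SE 0.09) that turned to −0.56 and −0.51 under that correction.

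Of the lower collagens, Col8a1 was at 544, 539 and 557 CPM in C old against 645 and 728 CPM in B old (−0.33, SE 0.07, edgeR adjusted p 0.00152). Col1a1 was at 18430 to 19451 CPM in C old and thus below both B old libraries (−0.27, SE 0.07, edgeR adjusted p 0.00572). Col5a2 was at 3144.5, 3283 and 3230 CPM in C old (−0.24, SE 0.07, edgeR adjusted p 0.00877). Under scaling by total counts these 3 differences came to −0.14, −0.080 and −0.049 and did not pass. The correction for length and GC content moved them the other way, to −0.52, −0.93 and −0.64, and all 3 passed. Col1a2 (−0.52) and Col3a1 (−0.42), not called before, passed under that correction as well.

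C old against A young MSCs used no library of batch B, but age and batch changed together and cannot be told apart. Here 16 of 37 collagens tested were higher and 9 lower, against 63.8% of all 15021 genes (32% higher and 31.9% lower). The median log2 fold change was 0.62 over collagens and 0.02 over all genes, and the libraries did not overlap for 25 collagens (16 higher and 9 lower), against 64.5% of all genes (29.5% higher and 35% lower). The lower collagens were those of the major fibrils and their companions (Col1a1, Col1a2, Col3a1, Col5a1 and Col5a2), together with Col4a2, Col6a1, Col6a2 and Col8a2. Scaling by total counts moved the median of all genes from 0.02 to 0.31. It gave 22 collagens higher and 5 lower, against 7214 higher and 2734 lower of all 15021 genes. Col3a1 was then at 0.074, Col6a1 at 0.065 and Col6a2 at 0.042 in place of −0.22, −0.23 and −0.25. Genes with a length in the middle range of collagens (5104 to 7371 nucleotides) had 41.9% higher and 25.5% lower, near the shares of collagens. Their median log2 fold change was 0.17. After the correction for length and GC content, 15 collagens were higher and 10 lower, against 3854 higher and 5527 lower of all 14997 genes. As in the comparison of both old groups, 14 of 14 haematopoietic markers were lower in C old. Of the osteoblast markers 6 of 7 were higher, as were 4 of 4 tested adipocyte and 3 of 5 smooth muscle and pericyte markers. Of the tested chondrocyte markers 2 of 5 were lower. Among the 7 MSC markers 2 were higher and 4 lower. The part of these markers was not tested.

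Col1a1 (chromosome 11, 94936224 to 94953042) was at 56370.5, 52362, 61727 and 53513.5 CPM in A young and 18430, 19451 and 19027.5 CPM in C old (−1.50, SE 0.10, edgeR adjusted p 9.91e-08). Col1a2 (chromosome 6, 4504814 to 4541544) was at 34238.5, 36237, 35654 and 34018 CPM in A young and 14927, 16122 and 15478 CPM in C old (−1.12, SE 0.09, edgeR adjusted p 3.98e-07). Both chains of type I collagen were thus below every A young library in all 3 C old libraries. Col5a1 was at 6875.5, 6690, 6619 and 5724 CPM in A young and 2944, 3089 and 3108 CPM in C old (−1.03, SE 0.09, edgeR adjusted p 6.42e-07), and Col5a2 was at 6968, 6234, 5871 and 5533 CPM in A young (−0.87, SE 0.09). Col3a1 differed less, with 8291, 9149, 8457 and 7990.5 CPM in A young and 7015, 6953 and 6983 CPM in C old.

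Col15a1 (chromosome 4, 47208161 to 47313167) was at 3.88, 12, 7.43 and 10.2 CPM in A young and 65.2, 58.7 and 74.2 CPM in C old (3.08, SE 0.23, edgeR adjusted p 3.09e-07). It was at 1.72 and 2.59 CPM in B young and 3.30 and 7.08 CPM in B old libraries, the widest span of the collagens above 1 CPM. Col10a1 was at 17.1, 14.1 and 15.7 CPM in C old (2.47, SE 0.20, edgeR adjusted p 5.13e-07) and at 7.81 and 4.41 CPM in B old, so that A young was lowest and C old highest of the 4 groups. Col27a1 was higher by 1.99 (SE 0.16, edgeR adjusted p 5.74e-07). Other collagens that were higher in C old, named after their values had been seen, included Col24a1, a fibrillar collagen of developing bone (2.02, SE 0.19), Col4a6 (3.08, SE 0.26), Col20a1 (2.41, SE 0.29), Col7a1 of anchoring fibrils (1.69, SE 0.19) and Col28a1 (1.38, SE 0.14).

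The remaining members with values in every library fell between these patterns. In A young, Col4a1 was at 305, 392, 270.5 and 252 CPM, and did not pass in C old against A young (0.30, SE 0.14), whereas Col4a2 was lower (−0.43, SE 0.13, edgeR adjusted p 0.0116). Col6a1 was at 2642.5, 3162, 2707 and 2882 CPM and Col6a2 at 2215, 2607, 2297 and 2329.5 CPM in A young, while Col6a3 was higher in C old by 0.62 (SE 0.08). Col12a1 was at 6482, 5009.6, 4613 and 3877 CPM in A young, a range that overlapped with C old (−0.0087, SE 0.14). Col4a5 was at 35.4 and 32 CPM in B old and 78.8, 64.3 and 85.4 CPM in C old, and Col18a1 at 73.4 and 93.6 CPM in B old and 149.7, 145 and 158 CPM in C old.

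**Figure D4:**
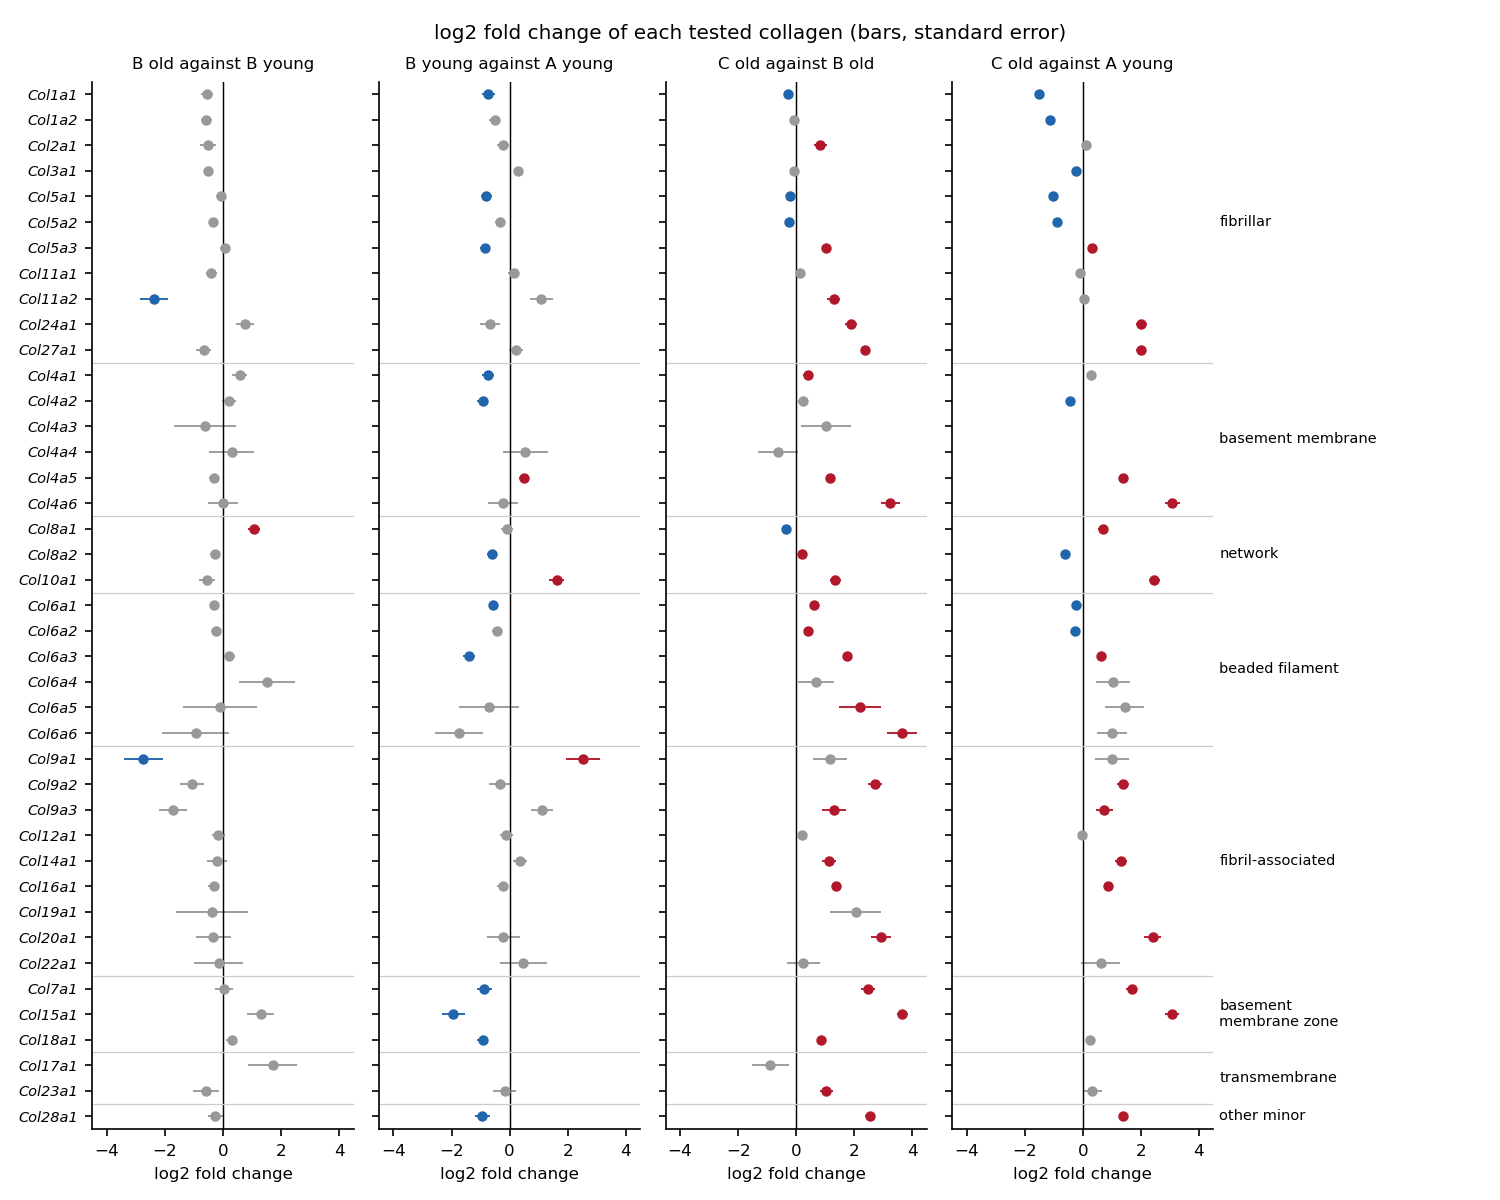
Each panel gives the log2 fold change (horizontal axis) of the collagens tested in that comparison, with bars for the standard error and genes ordered by class on the vertical axis. Red marks higher, blue lower and grey not past an edgeR adjusted p of 0.05. In B old against B young 3 points are coloured, and in C old against A young 16 are red and 9 blue, with the major fibrillar chains on the left.

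Across all libraries, without regard to batch, 4 of the 41 collagens had old and young ranges that did not overlap, against 6.95% of all 16132 genes (2.73% higher and 4.22% lower in old). Col8a1 was higher in all 5 old libraries, at 539 to 728 CPM against 229 to 424 CPM in the 6 young libraries. Col1a2 was lower, at 14927 to 16930.5 CPM in old against 18875 to 36237 CPM in young, as was Col5a2 at 3144.5 to 3847 against 4093.5 to 6968 CPM. Col1a1 was lower at 18430 to 23439 CPM in old against 23952 to 61727 CPM in young, where the gap between B old replicate 2 and B young replicate 2 was small beside the range of the young libraries. The count was made after the values had been seen, and the young group contains all of batch A and the old group all of batch C.

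Ratios of partner chains do not depend on how libraries were scaled, and are given per length of the longest transcript, as a description without a test. Col4a1 to Col4a2, which form the common trimer of type IV collagen from 2 chains and 1 chain, was at 0.732, 0.732, 0.688 and 0.647 in A young, 0.816 and 0.771 in B young, 1.06 and 0.985 in B old and 1.17, 1.2 and 1.13 in C old libraries. All 5 old libraries were above all 6 young libraries, also within batch B with its 2 libraries per age. The old libraries include all of batch C and the young ones all of batch A. How often ratios of other gene pairs separate in this way was not tested. Col1a1 to Col1a2 was at 1.48, 1.30, 1.56 and 1.42 in A young, 1.29 and 1.14 in B young, 1.27 and 1.25 in B old and 1.11, 1.09 and 1.11 in C old, so that C old was lowest while both ages of batch B overlapped. The protein ratio of type I collagen is 2 to 1, and RNA ratios per length shift with the length that is used.

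Col5a1 to Col5a2 was at 0.778 to 0.888 in A young, 0.540 to 0.647 in B young, 0.717 to 0.728 in B old and 0.738 to 0.758 in C old libraries, with B young lowest. Col6a3 to Col6a1 was at 0.143 to 0.172 in A young, 0.0728 to 0.0951 in B young, 0.122 to 0.126 in B old and 0.262 to 0.303 in C old, and no group overlapped with another. Col6a1 to Col6a2 varied least, from 1.26 to 1.48 over all libraries. When the union of all exons was used as length, Col1a1 to Col1a2 came to a mean of 3.03 in A young and 2.32 in C old, and Col4a1 to Col4a2 to 0.637 in A young, 0.722 in B young, 0.928 in B old and 1.06 in C old. The choice of length multiplies a ratio by the same factor in every library and cannot change the order of the groups.

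**Figure D5:**
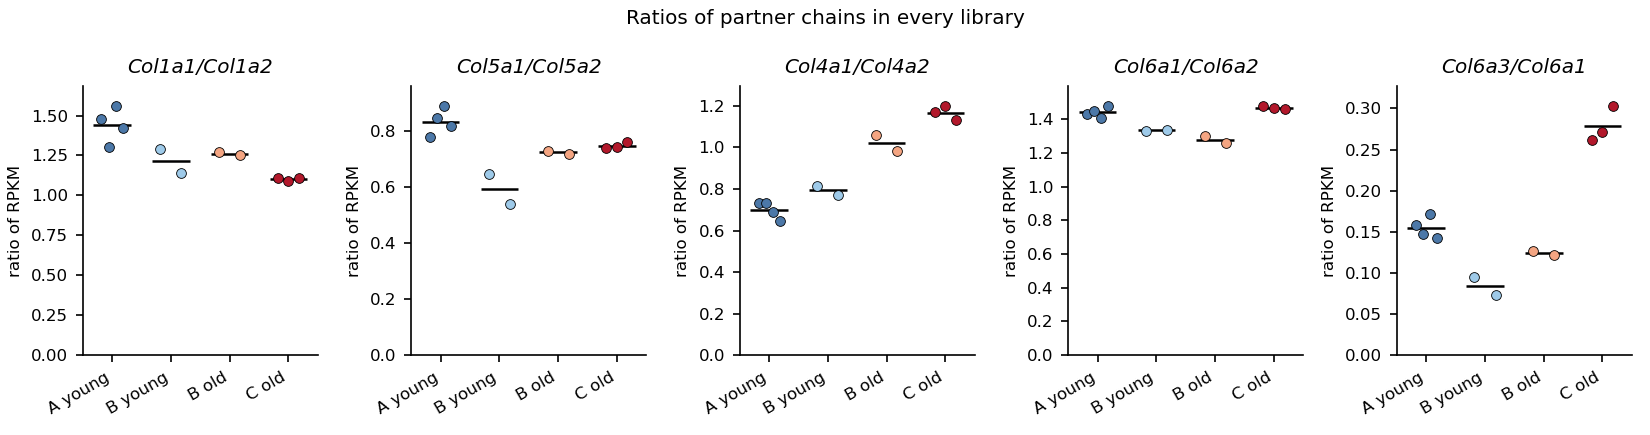
Points are ratios of RPKM of partner chains in each library, by group, and lines are group means, on axes that start at 0. Col4a1 to Col4a2 lies at 0.647 to 0.816 in young and 0.985 to 1.2 in old libraries, and Col6a3 to Col6a1 is highest in C old.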

How the data were processed

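RNA was sequenced in 11 libraries. The authors deposited raw read counts per gene. The study's methods name zUMIs with STAR and featureCounts on GRCm38 (mm10), and the use of strand and of molecular identifiers for counting is not given in the sources used here. Gene lengths and positions came from GENCODE M21 (28179 of 28222 genes matched). Counts were filtered with filterByExpr (minimum count 5), scaled by TMM and tested by edgeR 4.0.16 quasi-likelihood fits in R 4.3.3, with Benjamini-Hochberg adjustment over all genes tested and a threshold of 0.05. B old against B young was fitted over all libraries with age and batch as terms, the others over their own libraries. limma 3.58.1 and DESeq2 1.42.0 were alternatives. Shares were compared by exact permutation tests. On simulated counts for B old against B young (16017 genes), edgeR recovered 82.5% of 200 genes changed 2-fold. The simulation gave all genes the same dispersion and changed only genes above a minimum mean count. It did not copy the wide spread of the B young pair or the low counts of many minor collagens. Recovery in the real libraries can therefore be lower.

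Members and lists were chosen with earlier results of these data known. Values in every library are given for collagens called between ages in batch B, for 11 fixed collagens and for the 3 of smallest p in each direction of the other comparisons. Replicate numbers were not treated as pairs, and the labels do not say whether they mark pairs.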

Additional observations from a re-analysis of the deposited data

Results flagged for a closer look

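Of 26 quantities tested in the 4 A young libraries, 3 had a library whose gap to the nearest other one exceeded Dixon's 95% critical value as a part of the range, which chance gives in about 1 of 20 groups. Col4a5 was at 39.1 CPM in A young replicate 2 and at 26.9 to 28.2 CPM in the others. Col16a1 was at 309.9 CPM in the same library and at 221.5 to 227 CPM in the others. Col18a1 was at 97.2 CPM in A young replicate 1 and at 141 to 144 CPM in the others.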

How the results depend on the processing

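Between ages in batch B, the 3 collagens called became 5 with DESeq2, 12 without a filter on low counts, 8 without a batch term and 1 with batch B fitted alone, and 0 to 14 with 1 library left out. For B young against A young the 15 called ranged from 5 to 17 with 1 library left out, with 9 without A young replicate 3 or 4, 5 without B young replicate 2 and 17 without B young replicate 1. Leaving out 1 library gave 25 to 29 for C old against B old and 21 to 27 for C old against A young. The difference in share between C old and A young was −4.38 to −4.11 points with 1 library left out and −0.0462 without Col1a1, Col1a2 and Col3a1. The correction for length and GC content reversed Col4a1 (−0.24), Col4a2 (−0.56) and Col12a1 (−0.51) in C old against B old, and scaling by total counts reversed Col3a1 (0.074), Col6a1 (0.065) and Col6a2 (0.042) in C old against A young, and the cause was not tested. With the replicate number as a block, B young against A young had 8 collagens called (4.72% of all genes). B old against B young had the same 3 under that block (1.75% of all genes). Deviations of libraries from their own group mean correlated at 0.037 between same-numbered libraries of both ages in batch B. Between differently numbered ones they were at −0.037, opposite by construction in groups of this size. Single libraries left out aside, fold changes of named collagens under the alternatives kept their direction and side of the threshold, or stayed within the error where neither was called, in 507 cases, no longer passed in 36, newly passed in 29, changed sign with no call in either fit in 6 and reversed in the 6 named above. Collagens under 1 CPM rest on few counts, which limits what could be detected in them.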
